A study of Mus musculus with 8 samples.

Results

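A set of 9 regulators of the B cell's passage from germinal centre to plasma cell was followed in splenic B cells: Prdm1, Xbp1, Irf4, Irf8, Bcl6, Bach2, Sdc1, S1pr2 and Mef2b. They were chosen by name, as known switches and markers of these stages, and make up 9 of the 24902 gene symbols in the deposited matrix. All 9 had a count in every library, and 8 passed the expression filter. Mef2b did not pass it and was not tested.

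The RNA came from 8 mice of strain C57BL/6N that had met early removal criteria (ERC), the point of disease at which an animal is taken out of the study. There were 4 Eµ-PRMT5 mice, which carry human PRMT5 (Eµ-hPRMT5), 3 double-transgenic Eµ-PRMT5/TCL1 mice, which also carry human TCL1, and 1 Eµ-TCL1 mouse. In the Eµ-PRMT5 model a VH promoter and the IgH Eµ enhancer drive the transgene in immature and mature B cells, and a single founder line, L25, was fully characterised. The titles of Eµ-PRMT5 samples 1 to 4 carry the codes L22, L25, L31 and L32, and the titles of the other mice carry L codes too. The title with L25 also holds a founder name that the paper's methods list, which ties that sample to the L25 founder. Whether it is the founder itself or a mouse of its line is not stated. For the other Eµ-PRMT5 mice the labels do not state the founder line. The paper's histology describes large lymphocytes in a mouse numbered L31 and small ones in L32. Whether these are the same animals is not stated. The ages of these mice were not given in the sources used here, so genotype and age cannot be told apart. All B cells came from the spleen by pan-B cell isolation, and wild-type mice were not analysed here. The labels call these separate samples, each from its own mouse, so the spread between them is a spread between animals. The comparison with the lone Eµ-TCL1 mouse asks only whether that mouse falls beyond the variation among mice of the replicated genotypes.

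In the germinal centre, activated B cells divide and edit their antibody genes under BCL6 and BACH2, which hold back the plasma cell programme. IRF4 and IRF8, related factors that share partners and DNA sites, act on opposite sides of the choice. IRF4 at high dose turns on Prdm1, whose protein BLIMP1 shuts down the B cell programme. XBP1 then enlarges the secretory machinery, and syndecan-1 (Sdc1, CD138) appears at the surface of the finished plasma cell.

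The 250 bases before the RefSeq start of transcription are printed for the members with an unadjusted p under 0.05 in some comparison, and for the start of Bcl6 that holds a motif of its own factor. They are given from the GRCm38.p6 promoter table of RefSeq, in which all 9 members were found, in 11 windows. Bases that the gene annotation places in an exon were left off. Capitals mark a GC box (GGGGCGG) in Sdc1, a site of the BACH2 and AP-1 type (TGANTCA) in Prdm1 and a BCL6-type site (TTCCTNGAA) in Bcl6, and Xbp1 holds none of the motifs searched.
Sdc1, chr12:8771146-8771322, plus strand: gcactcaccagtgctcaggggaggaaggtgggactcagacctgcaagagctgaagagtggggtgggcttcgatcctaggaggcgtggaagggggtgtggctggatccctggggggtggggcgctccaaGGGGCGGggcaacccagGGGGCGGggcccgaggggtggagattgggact
Prdm1, chr10:44458749-44458998, minus strand: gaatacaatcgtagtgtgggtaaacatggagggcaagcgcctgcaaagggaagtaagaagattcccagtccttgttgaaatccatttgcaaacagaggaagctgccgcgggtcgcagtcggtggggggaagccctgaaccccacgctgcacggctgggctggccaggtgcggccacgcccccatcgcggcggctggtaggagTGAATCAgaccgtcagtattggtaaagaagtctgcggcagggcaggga
Xbp1, chr11:5520391-5520640, plus strand: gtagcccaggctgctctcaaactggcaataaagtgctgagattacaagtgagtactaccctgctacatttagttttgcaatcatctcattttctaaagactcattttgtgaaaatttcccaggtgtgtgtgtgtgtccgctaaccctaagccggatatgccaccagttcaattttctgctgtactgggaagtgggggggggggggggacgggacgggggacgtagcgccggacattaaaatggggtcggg
Bcl6, second start, chr16:23981284-23981533, minus strand: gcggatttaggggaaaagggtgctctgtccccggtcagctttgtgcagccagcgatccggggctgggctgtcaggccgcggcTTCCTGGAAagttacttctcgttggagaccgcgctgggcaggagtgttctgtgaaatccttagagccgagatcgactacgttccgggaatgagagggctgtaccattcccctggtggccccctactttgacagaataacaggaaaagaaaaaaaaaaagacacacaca
The GC boxes of Sdc1 begin 122 and 105 bases before the start. The TGANTCA match of Prdm1 begins 48 bases before it, and the Bcl6 match 168 bases before its second start. Both of these windows lie inside the annotated span of their gene, since longer transcripts begin further upstream.

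Each motif was searched on both strands of 32851 promoters, over whole windows that also hold bases after the start and in exons. In the stretches before the start, no match in the members overlapped another. TGANTCA occurred in 7.81% of promoters and, among the 9 members, in Prdm1. TTCCTNGAA occurred in 1.59% and, among the members, in Bcl6, the gene of the factor that binds it. GGGGCGG occurred in 23.2% and in 4 members, Irf4, Irf8, Mef2b and Sdc1. The IRF and PRDM1 motif GAAANNGAA occurred in 8.56% and the XBP1 motif TGACGTGG in 0.676%, with no match in the members' windows. A match describes letters in a window and not a bound site.

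Libraries held 3356297 to 10252426 counts on genes, the fewest in the Eµ-TCL1 mouse. Levels are given as CPM, counts scaled to a common library size with TMM factors. Of all 13173 tested genes, 0% passed the threshold (adjusted p below 0.05, change of more than 4-fold) in any of the 3 comparisons, by edgeR's quasi-likelihood test. The 0% holds for these mice and this test. For Eµ-PRMT5 against Eµ-TCL1 the paper, with more Eµ-TCL1 mice than the lone one here, reports differentially expressed genes at these cutoffs. With no adjustment and p under 0.05, the double-transgenic mice were above the Eµ-PRMT5 mice for 0.957% of genes and below them for 1.21%. Relative to the Eµ-TCL1 mouse, the double-transgenic mice were above for 1.75% and below for 4.33% of genes, and the Eµ-PRMT5 mice above for 1.96% and below for 4.82%. The mouse gene Prmt5 read 62.7 to 235 CPM in Eµ-PRMT5, 110 to 126 CPM in Eµ-PRMT5/TCL1 and 79.5 CPM in the Eµ-TCL1 mouse. It does not check the human transgene, whose own reads have no row here.

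Of the 9 regulators, Sdc1 separated the replicated genotypes most. Sdc1 is a heparan sulfate proteoglycan of the plasma cell surface, encoded at chr12:8771323-8793715 (GRCm38, plus strand). Its level was 203, 114, 60.0 and 37.0 CPM in Eµ-PRMT5 mice 1 to 4. It was 9.84, 9.44 and 35.5 CPM in Eµ-PRMT5/TCL1 mice 1 to 3 and 41.4 CPM in the Eµ-TCL1 mouse. All 3 Eµ-PRMT5/TCL1 mice lay below all 4 Eµ-PRMT5 mice, although mouse 3 of the former and mouse 4 of the latter were nearly level.

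The group means of Sdc1 were 18.3 ± 14.9 CPM (SD, n = 3) in double-transgenic and 103 ± 73.6 CPM (SD, n = 4) in Eµ-PRMT5 mice. The log2 fold change was -2.50 ± 0.66 (SE), a 5.65-fold lower level. Sdc1 ranked 9 of 13173 genes by p, but edgeR's quasi-likelihood test gave an unadjusted p of 0.00261 and a Benjamini-Hochberg adjusted p of 1.00. The exact permutation test of log2 CPM, two-sided over all 35 splits, gave p = 0.0571, where the smallest p that design can reach is 0.0286. Groups that do not overlap in this direction were seen for 1.59% of tested genes, and in the opposite direction for 1.35%. With library size in place of TMM scaling the groups of Sdc1 overlapped, at 35.2 CPM in Eµ-PRMT5/TCL1 mouse 3 and 31.8 CPM in Eµ-PRMT5 mouse 4. In bulk samples, fewer cells that express a gene and less RNA per cell cannot be told apart.

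The summed plasma cell markers moved in part with Sdc1, and the highest sums were mostly Jchain. The summed level of 5 plasma cell markers ran from 645 to 3419 CPM in Eµ-PRMT5 and from 378 to 2884 CPM in Eµ-PRMT5/TCL1 mice, and was 722 CPM in the Eµ-TCL1 mouse. Eµ-PRMT5 mouse 1 was highest, and double-transgenic mice 1 and 2 lowest, for both this sum and Sdc1, while double-transgenic mouse 3 had the next highest sum but lay below all Eµ-PRMT5 mice for Sdc1 with TMM scaling. Jchain, which links antibody polymers for secretion, read 3057, 943, 995 and 29.2 CPM in Eµ-PRMT5 mice 1 to 4 and 92.3, 62.5 and 2096 CPM in Eµ-PRMT5/TCL1 mice 1 to 3. Mzb1, a chaperone of antibody assembly, read 293, 224, 515 and 551 CPM in Eµ-PRMT5 mice 1 to 4, 248, 264 and 668 CPM in double-transgenic mice 1 to 3 and 473 CPM in the Eµ-TCL1 mouse. Eµ-PRMT5 mouse 4 had the lowest Jchain of all 8 mice and the second highest Mzb1. Derl3 was lowest of all 8 in Eµ-PRMT5 mouse 1, at 7.10 CPM, and highest in double-transgenic mouse 3, at 60.7 CPM. Fkbp11 was highest in double-transgenic mouse 3, at 47.3 CPM, followed by Eµ-PRMT5 mouse 1, at 41.8 CPM. Tnfrsf17 was highest in the Eµ-TCL1 mouse, at 63.0 CPM. The part that plasma cells in the preparation play in the Sdc1 difference was not tested.

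**Figure D1:**
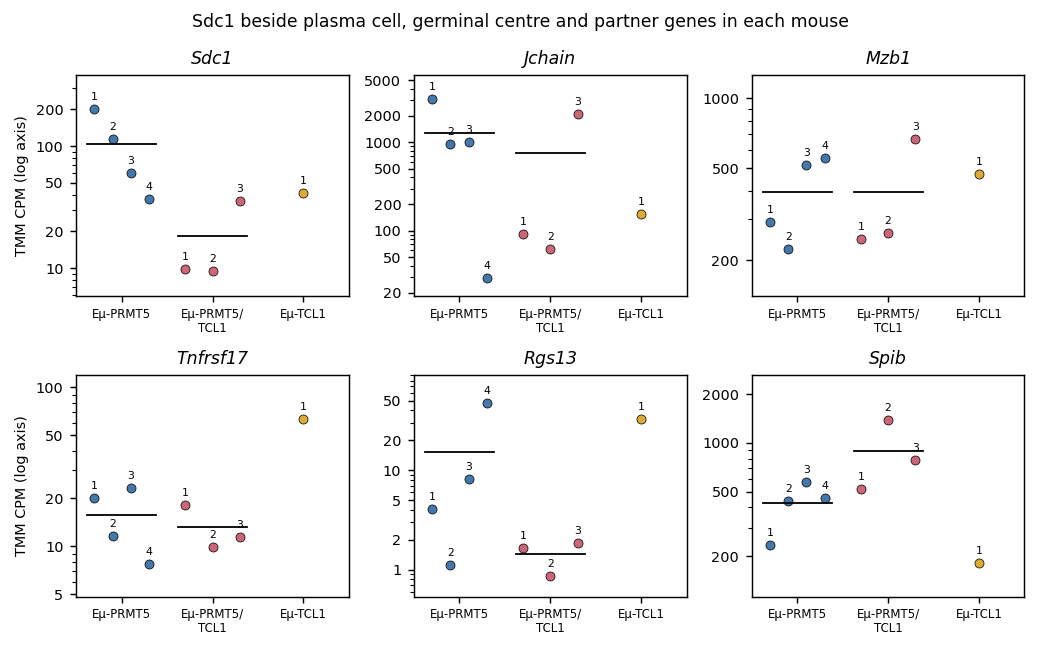
TMM-scaled CPM (log axis) of Sdc1 and of 5 related genes in each mouse by genotype; numbers are mice and bars are group means. The Eµ-PRMT5/TCL1 mice sit at or below 35.5 CPM for Sdc1, while their Jchain runs from 62.5 to 2096 CPM and their Rgs13 stays at or below 1.84 CPM.

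Xbp1 encodes the factor that turns on chaperones and secretory genes after its messenger RNA is spliced by IRE1, and lies at chr11:5520659-5525893 (plus strand). It read 2249, 961, 331 and 482 CPM in Eµ-PRMT5 mice 1 to 4. In Eµ-PRMT5/TCL1 mice 1 to 3 it read 390, 284 and 518 CPM, and in the Eµ-TCL1 mouse 1480 CPM. Eµ-PRMT5 mice 1 and 2 and the Eµ-TCL1 mouse were high, and Eµ-PRMT5 mice 3 and 4 overlapped the Eµ-PRMT5/TCL1 range.

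The means of Xbp1 were 397 ± 117 CPM (SD, n = 3) in Eµ-PRMT5/TCL1 and 1006 ± 871 CPM (SD, n = 4) in Eµ-PRMT5 mice. The log2 fold change was -1.34 ± 0.61 (SE), with an unadjusted p of 0.0480 and an adjusted p of 1.00 by edgeR's quasi-likelihood test. Without Eµ-PRMT5 mouse 1 it was -0.56, with an unadjusted p of 0.253 by the same edgeR test, and leaving out single mice gave unadjusted p from 0.0169 to 0.253. Against the Eµ-TCL1 mouse it was -1.90 ± 0.82 (SE) in Eµ-PRMT5/TCL1 mice, with an adjusted p of 0.778 by edgeR. In Eµ-PRMT5 mice it was -0.56 ± 0.83 (SE). With single mice left out, that value ran from -1.21 (without Eµ-PRMT5 mouse 1) to -0.27 (without Eµ-PRMT5 mouse 3).

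Prdm1 was highest in the Eµ-TCL1 mouse. The gene, at chr10:44437177-44528501 on the minus strand, encodes BLIMP1, a zinc finger repressor required for antibody-secreting cells. It read 210 CPM in the Eµ-TCL1 mouse, 95.2, 39.4, 64.1 and 38.9 CPM in Eµ-PRMT5 mice 1 to 4 and 29.5, 49.5 and 47.2 CPM in Eµ-PRMT5/TCL1 mice 1 to 3. The Eµ-TCL1 mouse was above all 7 others, while the 2 replicated genotypes overlapped.

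Between the Eµ-PRMT5/TCL1 mice and the Eµ-TCL1 mouse the log2 fold change of Prdm1 was -2.32 ± 0.54 (SE), with an unadjusted p of 0.00109 and an adjusted p of 0.739 by edgeR's quasi-likelihood test. For the Eµ-PRMT5 mice compared with that mouse it was -1.82 ± 0.52 (SE), with an unadjusted p of 0.00424 and an adjusted p of 0.709 by the same edgeR test. These comparisons share that 1 mouse, the shallowest library, and 21.3% of tested genes were likewise higher in it than in all 7 others, against 14.2% that were lower. Between the replicated genotypes Prdm1 differed by -0.50 ± 0.40 (SE), with an adjusted p of 1.00 by edgeR.

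Irf4 lies at chr13:30749226-30766976 (plus strand) and encodes a factor that B cells need both to enter the germinal centre and, at higher dose, to leave it as plasma cells. One mouse stood apart: Irf4 read 387 CPM in Eµ-PRMT5 mouse 2 and 136, 113 and 93.7 CPM in Eµ-PRMT5 mice 1, 3 and 4. It read 97.9, 102 and 110 CPM in Eµ-PRMT5/TCL1 mice 1 to 3 and 118 CPM in the Eµ-TCL1 mouse. The Eµ-PRMT5/TCL1 mice were nearly level, with a highest value 1.13 times the lowest, whereas in Eµ-PRMT5 mice that ratio was 4.13.

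Eµ-PRMT5 mouse 2 is also the mouse with the highest Irf8. Irf8, at chr8:120736358-120756694 (plus strand), encodes a factor of B cells and myeloid cells that holds germinal centre B cells in place together with PU.1. It read 393, 1141, 272 and 568 CPM in Eµ-PRMT5 mice 1 to 4, 332, 442 and 277 CPM in Eµ-PRMT5/TCL1 mice 1 to 3 and 373 CPM in the Eµ-TCL1 mouse. For Irf8 all 3 genotypes overlapped. For Irf4 the Eµ-PRMT5 mice overlapped both other genotypes, and the Eµ-TCL1 mouse was above the 3 double-transgenic mice.

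For Irf4 the log2 fold change of double-transgenic over Eµ-PRMT5 mice was -0.82 ± 0.48 (SE), and for Irf8 -0.76 ± 0.48 (SE), with unadjusted p of 0.111 and 0.140 by edgeR's quasi-likelihood test. Without Eµ-PRMT5 mouse 2 these became -0.15 and -0.23.

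Bcl6 encodes the zinc finger repressor without which no germinal centre forms, at chr16:23965052-23988852 (minus strand). It read 19.5, 62.5, 48.6 and 11.9 CPM in Eµ-PRMT5 mice 1 to 4, 58.2, 21.3 and 23.1 CPM in Eµ-PRMT5/TCL1 mice 1 to 3 and 27.6 CPM in the Eµ-TCL1 mouse. The means were 35.6 ± 23.9 CPM (SD, n = 4) in Eµ-PRMT5 and 34.2 ± 20.8 CPM (SD, n = 3) in double-transgenic mice. High and low mice occurred in both genotypes, and the log2 fold change of -0.06 ± 0.58 (SE) was within the spread and turned sign under several settings.

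Bach2 was the most uneven member within a genotype. It encodes a repressor that delays Prdm1 and permits class switching, and lies at chr4:32238804-32586108 (plus strand). It read 119, 107, 28.0 and 9.80 CPM in Eµ-PRMT5 mice 1 to 4, a 12.2-fold range, 64.8, 23.3 and 27.7 CPM in Eµ-PRMT5/TCL1 mice 1 to 3 and 59.5 CPM in the Eµ-TCL1 mouse. Eµ-PRMT5 mice 1 and 2 were high, mouse 4 was lowest of all 8, and the genotypes overlapped. The log2 fold change of double-transgenic over Eµ-PRMT5 mice was -0.77 ± 0.71 (SE), with an unadjusted p of 0.299 by edgeR's quasi-likelihood test. It was -0.30 without Eµ-PRMT5 mouse 1 and -1.37 without Eµ-PRMT5/TCL1 mouse 1.

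S1pr2, at chr9:20962361-20976781 (minus strand), encodes the sphingosine-1-phosphate receptor that keeps B cells confined to the germinal centre. It read 11.4, 11.2, 14.4 and 28.5 CPM in Eµ-PRMT5 mice 1 to 4, 34.9, 14.0 and 9.37 CPM in Eµ-PRMT5/TCL1 mice 1 to 3 and 47.3 CPM in the Eµ-TCL1 mouse. The Eµ-TCL1 mouse was again above all 7 others, as it was for 21.3% of tested genes. The log2 fold change from it was -1.28 ± 0.77 (SE) in Eµ-PRMT5/TCL1 and -1.53 ± 0.72 (SE) in Eµ-PRMT5 mice, with unadjusted p of 0.121 and 0.0568 by edgeR's quasi-likelihood test. With single mice left out, the first ran from -2.01 (without Eµ-PRMT5/TCL1 mouse 1) to -0.95 (without Eµ-PRMT5/TCL1 mouse 3). The second ran from -1.94 (without Eµ-PRMT5 mouse 4) to -1.27 (without Eµ-PRMT5 mouse 1). Between the replicated genotypes it was 0.24 ± 0.54 (SE).

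Mef2b, at chr8:70139711-70167488 (plus strand), encodes a MADS-box factor that activates Bcl6 in germinal centre B cells. It had 5, 1, 1 and 1 counts in Eµ-PRMT5 mice 1 to 4. Double-transgenic mice 1 to 3 had 1, 2 and 1 counts, and the Eµ-TCL1 mouse had 3. These counts cannot show a difference at this depth. It overlaps Borcs8 on the same strand over 62 exon bases, 4.42% of its exon length, so single counts may belong to either gene.

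**Figure D2:**
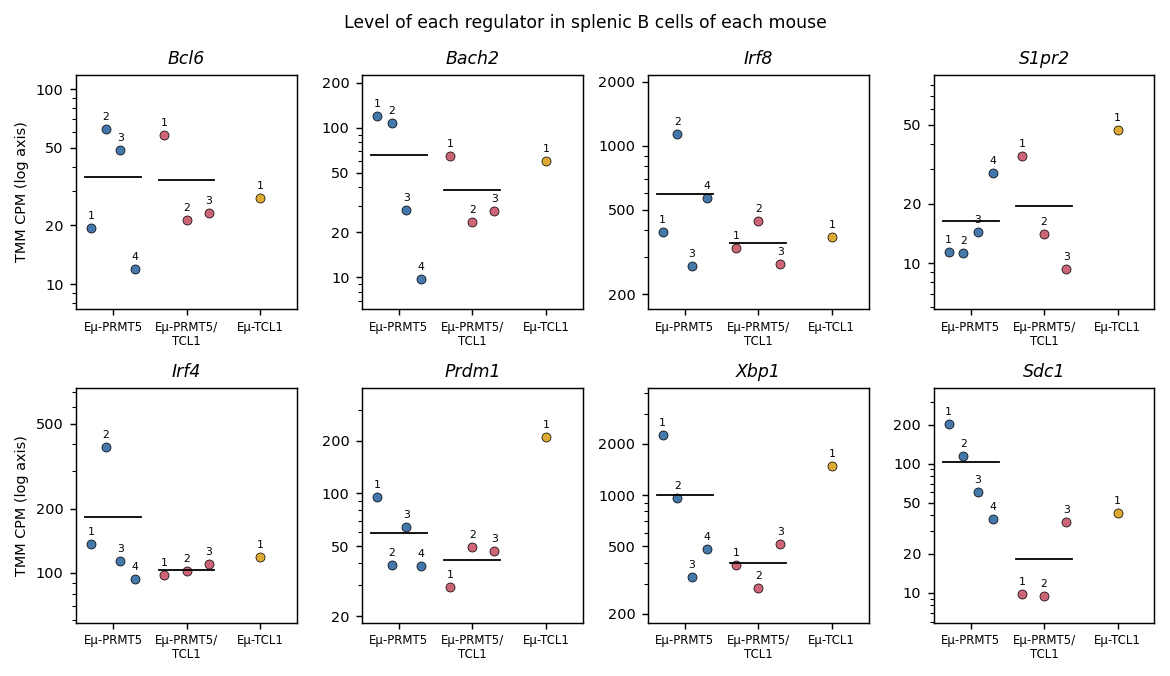
TMM-scaled CPM (log axis) of the 8 tested regulators in each mouse by genotype; numbers are mice and bars are group means, with no bar for the lone Eµ-TCL1 mouse. Sdc1 alone of the 8 shows the 3 Eµ-PRMT5/TCL1 mice below all 4 Eµ-PRMT5 mice, which overlap with library size only, and Prdm1 and S1pr2 are highest in the Eµ-TCL1 mouse at 210 and 47.3 CPM.

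Of the 8 tested regulators, 7 had a negative log2 fold change of double-transgenic over Eµ-PRMT5 mice, with a median of -0.77. Over all tested genes 59.4% were negative and the median was -0.09. Sdc1 and Xbp1, both of the plasma cell side, had an unadjusted p under 0.05 and were lower in Eµ-PRMT5/TCL1 mice, as were 1.21% of all genes. Against the Eµ-TCL1 mouse the median was -0.90 in Eµ-PRMT5/TCL1 mice, where 7 of 8 were negative, and 0.26 in Eµ-PRMT5 mice, where 3 of 8 were negative. Over all genes the medians were -0.07 and 0.04, and 53.4% and 48.1% of genes were negative.

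**Figure D3:**
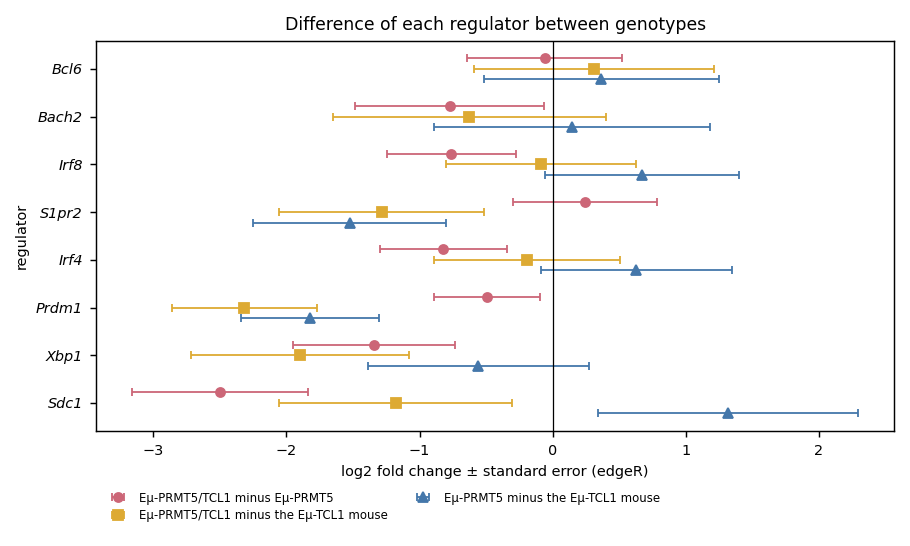
Log2 fold change of each tested regulator in the 3 comparisons; points are edgeR estimates and bars are ± 1 standard error. Sdc1 at -2.50 and Prdm1 at -2.32 lie furthest from 0, the first between the replicated genotypes and the second against the Eµ-TCL1 mouse.

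Per kilobase of exon, the order of the regulators' levels was led by Xbp1. The median over 8 mice was 154 CPM per kb for Xbp1, 54.3 for Irf8, 22.8 for Irf4, 10.3 for Sdc1, 8.66 for Prdm1, 4.40 for Bach2, 3.78 for Bcl6, 1.78 for S1pr2 and 0.140 for Mef2b. Sdc1 and Prdm1 do not differ beyond their spread, with 2.48 to 53.2 and 5.29 to 37.6 CPM per kb, and neither do Bach2 and Bcl6, with 0.986 to 12.0 and 1.77 to 9.33 CPM per kb. Exon lengths come from the GENCODE annotation of GRCm38 and not from the counting used for the files.

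Ratios of counts within a library do not depend on how libraries are scaled. They were chosen after the values were seen and are given as a description, with no test. Sdc1 over Prdm1 was 2.13, 2.88, 0.936 and 0.953 in Eµ-PRMT5 mice 1 to 4. Double-transgenic mice 1 to 3 gave 0.333, 0.191 and 0.752, and the Eµ-TCL1 mouse gave 0.197. All 4 mice that carry TCL1 thus lay below all 4 that do not, and the share of gene pairs that split in this way was not computed. Sdc1 itself did not split so: the Eµ-TCL1 mouse, at 41.4 CPM, was above Eµ-PRMT5 mouse 4, at 37.0 CPM. Prdm1 and Xbp1 read 210 and 1480 CPM in the Eµ-TCL1 mouse. Sdc1 over Xbp1 gave the same split, at 0.0768 to 0.181 in Eµ-PRMT5, 0.0253 to 0.0685 in Eµ-PRMT5/TCL1 mice and 0.0280 in the Eµ-TCL1 mouse.

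The ratio of the opposed repressors, Prdm1 over Bcl6, was 4.89, 0.630, 1.32 and 3.27 in Eµ-PRMT5 mice 1 to 4. It was 0.507, 2.32 and 2.05 for double-transgenic mice 1 to 3, and 7.61 for the Eµ-TCL1 mouse. In Eµ-PRMT5 mouse 2 and double-transgenic mouse 1, Bcl6 had more counts than Prdm1. Irf4 over Irf8 ran from 0.165 to 0.416 in Eµ-PRMT5 and from 0.231 to 0.397 in Eµ-PRMT5/TCL1 mice and was 0.317 in the Eµ-TCL1 mouse. It therefore overlapped in all genotypes, also in the Eµ-PRMT5 mouse with high Irf4. Ratios over Bach2 overlapped as well. Prdm1 over Bach2 ran from 0.369 to 3.96 in Eµ-PRMT5 and from 0.456 to 2.12 in Eµ-PRMT5/TCL1 mice. Xbp1 over Bach2 ran from 8.99 to 49.2 and from 6.02 to 18.7 in the same order.

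**Figure D4:**
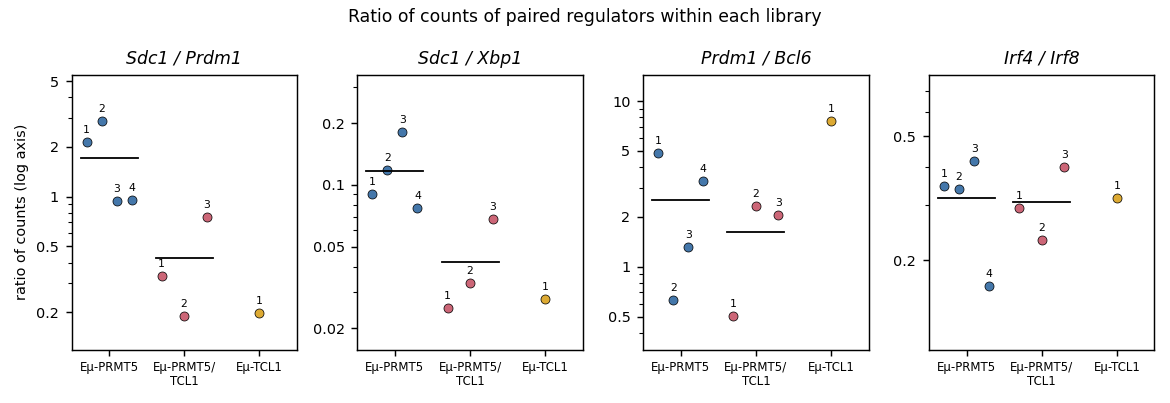
Ratio of raw counts (log axis) of 4 pairs of regulators within each library by genotype; numbers are mice and bars are group means. Sdc1 over Prdm1 and Sdc1 over Xbp1 are lower in the 4 mice that carry TCL1 than in the 4 that do not. The pairs were chosen after the values were seen, and the share of gene pairs that split so was not computed. Sdc1 itself does not split so, at 41.4 CPM in the Eµ-TCL1 mouse and 37.0 CPM in Eµ-PRMT5 mouse 4. Prdm1 over Bcl6 and Irf4 over Irf8 overlap between the replicated genotypes, and Prdm1 over Bcl6 is highest in the Eµ-TCL1 mouse, at 7.61.

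Across the 8 mice, the 28 pairs of tested regulators had Pearson correlations of log2 CPM from -0.40 to 0.78, with 8 pairs over 0.5. Irf4 and Irf8 gave the highest at 0.78, Xbp1 and Sdc1 gave 0.74, and the opposed Prdm1 and Bcl6 gave -0.20. The genes of most similar pattern over the 8 libraries were Gstz1 (0.96) for Sdc1, 9530082P21Rik (0.98) for Prdm1, Zfp51 (0.98) for Xbp1, Gbe1 (0.97) for Irf4, Rgs1 (0.96) for Irf8, Rps6ka2 (0.98) for Bcl6, Trim35 (0.98) for Bach2 and Jdp2 (0.97) for S1pr2. These points share libraries, depth and scaling, and the genes are the best of 13173, so the values only describe.

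The wider pathways were read from 7 gene lists. None of their genes passed the adjusted threshold in any comparison, by edgeR's quasi-likelihood test, and the counts below use an unadjusted p under 0.05. Of 14 germinal centre genes 12 were tested, and 2 were lower in the double-transgenic than in the Eµ-PRMT5 mice, as were 1.21% of all tested genes, with a list median of 0.17. Rgs13, a damper of chemokine signals in germinal centre B cells, read 4.06, 1.11, 8.21 and 48.1 CPM in Eµ-PRMT5 mice 1 to 4, 1.64, 0.858 and 1.84 CPM in Eµ-PRMT5/TCL1 mice 1 to 3 and 32.7 CPM in the Eµ-TCL1 mouse. The log2 fold change of Rgs13 was -3.41 ± 1.10 (SE), and its groups overlapped through Eµ-PRMT5 mouse 2. Cxcr4, the dark zone chemokine receptor, differed by -2.28 ± 0.89 (SE) with overlapping groups.

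Of 15 genes of the IRF family and its partners, 2 were higher in the double-transgenic than in the Eµ-PRMT5 mice, as were 0.957% of all tested genes. Spi1, which encodes the ETS factor PU.1 that binds DNA with IRF4 and IRF8, read 131, 122, 120 and 219 CPM in Eµ-PRMT5 mice 1 to 4, 522, 337 and 168 CPM in Eµ-PRMT5/TCL1 mice 1 to 3 and 158 CPM in the Eµ-TCL1 mouse. The log2 fold change of Spi1 was 1.21 ± 0.41 (SE), with an unadjusted p of 0.0125 and an adjusted p of 1.00 by edgeR. Spi1 is also a myeloid gene: the summed level of 5 macrophage and monocyte markers was 7017 CPM in Eµ-PRMT5/TCL1 mouse 1 and 851 CPM in mouse 3, in the order of Spi1, and its part in the result was not tested. Spib, the relative restricted to lymphoid cells, differed by 1.07 ± 0.43 (SE), with an unadjusted p of 0.0291 and an adjusted p of 1.00 by edgeR.

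Irf1, an interferon-induced member of the family, read 54.3 CPM in the Eµ-TCL1 mouse and 121 to 248 CPM in the others. That mouse was below all 7 others, as it was for 14.2% of tested genes. The log2 fold changes of Irf1 were 1.87 ± 0.57 (SE) for Eµ-PRMT5/TCL1 and 1.69 ± 0.55 (SE) for Eµ-PRMT5 mice. Of 10 corepressors and MEF2 partners, which act with BCL6 and MEF2B, none had an unadjusted p under 0.05 in any comparison by edgeR's quasi-likelihood test. Mef2c, a relative of Mef2b, differed by -0.56 ± 0.38 (SE) of double-transgenic over Eµ-PRMT5 mice, at 84.9 to 231 against 192 to 230 CPM.

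Of 18 plasma cell genes 14 were tested, and none had an unadjusted p under 0.05 between the replicated genotypes by edgeR's quasi-likelihood test. The list median was -0.26, with 10 negative and 4 positive, beside -2.50 for Sdc1. Tnfrsf17, the BCMA receptor on which plasma cells depend, read 63.0 CPM in the Eµ-TCL1 mouse and 7.73 to 23.3 CPM in the other 7. Prdm1 was highest in that mouse too. Of the 14 tested genes of the list, 1, Tnfrsf17, was above all 7 others there, beside 21.3% of all tested genes. Its log2 fold change was -2.26 ± 0.67 (SE) in Eµ-PRMT5/TCL1 and -2.01 ± 0.63 (SE) in Eµ-PRMT5 mice, with adjusted p of 0.778 and 0.709 by edgeR. Jchain was not high there, at 156 CPM.

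The 12 genes of XBP1 and the unfolded protein response had a median of -0.01 between the replicated genotypes, with 6 negative and 6 positive and none with an unadjusted p under 0.05 by edgeR, beside -1.34 for Xbp1 itself. Herpud1, a gene of the endoplasmic reticulum stress response, had the smallest p of the list, with a log2 fold change of -0.74 ± 0.49 (SE). It read 1877, 1692, 446 and 1015 CPM in Eµ-PRMT5 mice 1 to 4, 740, 847 and 666 CPM in double-transgenic mice 1 to 3 and 1813 CPM in the Eµ-TCL1 mouse, high in the same 3 mice as Xbp1. Dnajb9, a chaperone gene that XBP1 activates, read 56.8, 70.6, 19.4 and 17.3 CPM in Eµ-PRMT5 mice 1 to 4 and 21.6 to 29.4 CPM in Eµ-PRMT5/TCL1 mice, so mice 1 and 2 were high as for Xbp1. Pdia4, which folds secreted proteins, went the other way, at 655 and 559 CPM in those 2 mice and 1553 and 1357 CPM in Eµ-PRMT5 mice 3 and 4. Syvn1, with the next smallest p after Herpud1, was higher in the double-transgenic mice, with a log2 fold change of 0.47 ± 0.32 (SE). It read 255 to 399 CPM there and 197 to 270 CPM in Eµ-PRMT5 mice. Against the Eµ-TCL1 mouse, which had high Xbp1, Sdf2l1 was 2.02 ± 0.89 (SE) higher on the log2 scale in Eµ-PRMT5/TCL1 mice. That mouse was below all 7 others for 5 of the 12 genes, Sdf2l1 among them, beside 14.2% of all tested genes. It was above all 7 others for 0 of the 12, beside 21.3% of all tested genes.

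Of 10 genes that PRDM1 represses, 1 was lower in the double-transgenic than in the Eµ-PRMT5 mice, beside 1.21% of all tested genes. Fcer2a (CD23), a marker of mature follicular B cells, read 12.6, 19.3, 38.5 and 1.73 CPM in Eµ-PRMT5 mice 1 to 4 and 2.13, 0.858 and 4.92 CPM in Eµ-PRMT5/TCL1 mice 1 to 3, a log2 fold change of -2.76 ± 0.93 (SE). The list median was 0.24. Myc was lowest in the mice with the most Prdm1, at 55.8 CPM in Eµ-PRMT5 mouse 1 and 84.6 CPM in the Eµ-TCL1 mouse. In the other mice Myc read 144 to 474 CPM. Ebf1, of the same list, was highest in Eµ-PRMT5 mouse 1, at 1341 CPM, and a link to Prdm1 was not tested. Of 11 relatives of the members 7 were tested, with a median of -0.10 and none with an unadjusted p under 0.05 by edgeR. Sdc4, the other syndecan tested, differed by -0.53 ± 0.50 (SE), against -2.50 for Sdc1.

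**Figure D5:**
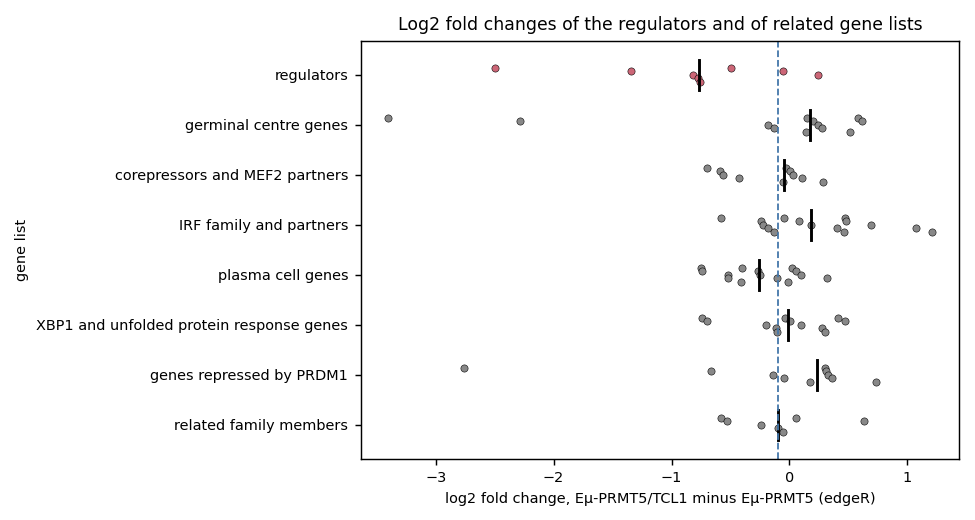
Log2 fold change of double-transgenic over Eµ-PRMT5 mice for each tested gene of the regulators and of 7 related lists; points are genes, black bars are list medians and the dashed line is the median of all tested genes at -0.09. The regulators have a median of -0.77, the plasma cell genes -0.26 and the XBP1 list -0.01.

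The B cell markers (7 of 7 measured) were abundant in every mouse, at 1990 to 6886 CPM summed in Eµ-PRMT5, 3813 to 8364 in Eµ-PRMT5/TCL1 and 5117 in the Eµ-TCL1 mouse, with the lowest sum in Eµ-PRMT5 mouse 4, which also had the least Bach2 and Bcl6. Neutrophil markers (7 of 7) summed to 414 to 5065, 625 to 8629 and 582 CPM in the same order, and macrophage and monocyte markers (5 of 8) to 1049 to 3122, 851 to 7017 and 1011 CPM. Both sums exceeded the B cell sum in Eµ-PRMT5/TCL1 mouse 1, at 8629 and 7017 against 3813 CPM. The same held in Eµ-PRMT5 mouse 4, at 5065 and 3122 against 1990 CPM. Sums over different markers do not give shares of cells. T cell markers (4 of 8) reached 202 CPM and NK cell markers (3 of 5) 356 CPM, both in Eµ-PRMT5 mouse 3. Conventional dendritic cell markers (3 of 6) stayed at or below 90.2 CPM, plasmacytoid dendritic cell markers (3 of 6), a type that expresses Irf8, at or below 160 CPM, and erythroid markers (4 of 6) at or below 309 CPM. Defining markers without a value in every library included Cd4, Cd8a, C1qa, Xcr1 and Siglech. Neutrophil sums were 414 CPM in Eµ-PRMT5 mouse 3 and 5065 CPM in mouse 4, with Sdc1 at 60.0 and 37.0 CPM. Of the double-transgenic mice, the pair with the lowest Sdc1 had neutrophil sums of 8629 and 4914 CPM, and the third had 625 CPM. The part of other cell types in the regulators' levels was not tested.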

How the data were processed

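Bulk RNA-seq of pan-B cells from spleens of 8 mice at ERC was analysed. The deposited matrix gives raw counts for each symbol and mouse, neither normalized nor pooled by the authors. Per the labels' processing notes, Subread and featureCounts on GRCm38 and DESeq2 1.20.0 were used, the last, per the study's methods, for differential expression; the annotation and the use of strand for these mice are not given in the sources used here. The study's methods describe low-input preamplification and the CLEAR workflow for these mice, whereas the labels describe a stranded kit and greater depth, so strand was treated as unknown. Bach2 and Bcl6 have partners on the other strand (5.40% and 0.313% of their exon bases).

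Cells holding NA (36919) were not read as 0: 14072 symbols were complete over the libraries and were used; they hold 95.2% to 99.5% of counts, and 13173 passed the expression filter by group. edgeR 4.0.16 in R 4.3.3 fitted 1 quasi-likelihood model over the 3 groups with TMM factors and Benjamini-Hochberg adjustment. The biological coefficient of variation was 0.483. The threshold was adjusted p below 0.05 with more than 4-fold change. DESeq2 1.42.0, other scalings, filters, pseudocounts, leaving out each mouse and a block by mouse number were alternatives. The fit was tested on simulated data. Python 3.11.15 drew figures and read promoters from the RefSeq table for GRCm38.p6.

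The regulators, related lists and markers were chosen with earlier results of these data known. The text names all 9 regulators. From each related list it names up to 4 genes by p between the replicated genotypes and up to 2 per comparison with the Eµ-TCL1 mouse. It also names the genes most like each regulator over 8 libraries, and gives markers as sums. Jchain, Mzb1, Derl3 and Fkbp11 were also shown singly, chosen after their values were seen.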

Additional observations from a re-analysis of the deposited data

Results flagged for a closer look

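In groups of 4, a mouse was taken as apart when its gap to the nearest other, divided by the range, exceeded Dixon's 95% critical value. Of 9 regulators examined in the Eµ-PRMT5 mice, 2 showed this, where a nominal rate of 1 in 20 gives 0.45. That rate need not hold for untransformed CPM or for counts as low as those of Mef2b, so nothing is concluded from it. In Eµ-PRMT5 mouse 2, Irf4 reached 387 CPM, while the other 3 ranged from 93.7 to 136 CPM. Mef2b reached 1.01 CPM in mouse 1, while the rest ranged from 0.115 to 0.228 CPM, which rests on 5 counts against 1 each.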

How the results depend on the processing

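Under DESeq2, 4 genes passed the threshold between the replicated genotypes (3 higher, 1 lower), 16 against the Eµ-TCL1 mouse for Eµ-PRMT5/TCL1 (9 higher, 7 lower) and 18 for Eµ-PRMT5 mice (4 higher, 14 lower), none of them a regulator; every other setting run gave 0, and the cause was not tested. Of 424 values of the regulators under other settings, 400 kept their direction, 24 turned sign and none passed the threshold. Sdc1 stayed between -3.42 (without Eµ-PRMT5/TCL1 mouse 3) and -1.92 (without Eµ-PRMT5 mouse 1) when mice were left out, and its adjusted p was lowest under DESeq2, at 0.111, and 1.00 at most. Bcl6 between the replicated genotypes ran from -0.68 to 0.36 without single mice, and was 0.078, 0.069 and 0.042 with pseudocounts of 0.1, 1 and 5 and 0.075 on the scale of the exact permutation test. S1pr2 there ran from -0.49 (without Eµ-PRMT5/TCL1 mouse 1) to 0.66. Against the Eµ-TCL1 mouse, Eµ-PRMT5/TCL1 values turned sign for Irf4 (0.10) and Irf8 (0.20) with NA counted as 0, for Irf8 with only the groups compared (0.031), and without single mice for Irf8 (-0.29 to 0.052) and Bcl6 (-0.31 to 0.56). Eµ-PRMT5 values turned for Irf4 (-0.046 to 0.85) and Bcl6 (-0.056 to 0.67) without single mice, and for Bach2 with upper-quartile scaling (-0.043), library size only (-0.12), pseudocounts (-0.46, -0.43 and -0.34) and single mice left out (-0.20 to 0.51). Scaling by library size moved the median of all genes against the Eµ-TCL1 mouse from -0.07 to -0.30 for Eµ-PRMT5/TCL1 and from 0.04 to -0.21 for Eµ-PRMT5 mice. 

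The replicate block by mouse number gave 0 genes past the threshold. Same-numbered mice are different animals whose deviations correlated at 0.021, 0.11 and 0.16, so the numbers were not taken as a pairing, and not every mouse correlated best with its own number. At an unadjusted p under 0.05 the block gave 495 genes higher and 331 lower, against 374 and 368 for the same 6 mice without it, a setting added after the data were seen, and 126 and 160 over all mice. Without Eµ-PRMT5 mouse 3 these counts were 424 and 347, and without mouse 4 392 and 368. The number of mice, 3 and 4 per replicated genotype and 1 Eµ-TCL1 mouse, limits the precision of all values.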
